A study of Mus musculus with 12 samples.

Results

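The nuclear-encoded subunits of the mitochondrial respiratory chain and ATP synthase were followed in bone marrow stromal cells (BMSCs) kept in culture, recovered from marrow, or recovered from a lung carcinoma graft. Members were chosen by gene symbol alone, as every gene whose symbol begins with Ndufa, Ndufb, Ndufc, Ndufs, Ndufv, Uqcr, Cox4i, Cox5, Cox6, Cox7, Cox8 or Atp5, plus Sdha to Sdhd, with the Ndufaf assembly factors left out. This gave 85 of the 21001 genes in the deposited tables: 37 of complex I, 4 of complex II, 8 of complex III, 19 of complex IV and 17 of complex V. Ndufa4 and Ndufa4l2 were placed in complex IV, since the NDUFA4 protein is a subunit of cytochrome c oxidase. None of the 13 subunits encoded by mitochondrial DNA is listed in the tables, so the values below concern nuclear genes.

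Complexes I and II feed electrons from NADH and succinate into coenzyme Q. Complex III passes them to cytochrome c, and complex IV passes them to oxygen. Complexes I, III and IV pump protons, and complex V, the ATP synthase, uses the resulting gradient to make ATP through a rotating ring of c subunits. Several complex IV subunits exist in a common form and a form best known from heart, skeletal muscle, lung or testis. Cultured stromal cells are known to rely heavily on glycolysis.

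The series holds 12 RNA-seq libraries, 3 in each of 4 groups of GFP-marked BMSCs from C57BL/6 mice, a strain listed as wide type. NC cells were primary cultured GFP-BMSCs. HOMING cells were GFP-positive marrow cells, sorted after GFP-BMSCs had been injected under the skin without tumour cells. BM and TUMOR cells came from mice that had received GFP-BMSCs together with RFP-marked Lewis lung carcinoma cells (LLC, a mouse lung tumour line): BM cells were sorted from the marrow and TUMOR cells from the injection site. Ages are not given, the NC cells were cultured while the other groups were sorted from tissue, and it is not stated whether replicates came from separate animals, so p-values measure only the spread between these samples, which may be technical.

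Total estimated counts ranged from 43232145 to 46166519 per library. Stromal genes were present in all 4 groups, with Col1a1 between 168 and 281 FPKM and Pdgfrb between 6.04 and 15.8 FPKM in every library (FPKM is a fragment count scaled for transcript length and library size), whereas Thy1, Nt5e and Lepr, of the same 12-gene stromal list, stayed under 1 FPKM. The HOMING libraries also held blood-cell RNA: summed FPKM over 10 neutrophil genes was 1724 to 2525 in HOMING, 51.7 to 60.0 in BM and at most 2.73 in NC and TUMOR, and over 9 red cell genes it was 2108 to 3472 in HOMING and at most 3.67 elsewhere. Monocyte and macrophage genes summed to 146 to 246 FPKM in HOMING and at most 20.04 elsewhere, and Ptprc, the leukocyte marker, reached 5.94 to 10.6 FPKM in HOMING. Of 5 epithelial genes, Krt8 and Krt19 were high in TUMOR (48.1 to 93.8 and 21.0 to 22.4 FPKM), while Epcam, Cdh1 and Krt18 stayed at or under 0.12 FPKM in every library. The part of these other cells in the results below was not tested, and in bulk samples fewer cells of a type and less RNA per cell cannot be told apart.

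As a family, the subunit genes were at their lowest in BM. Their summed level was 12518, 12027 and 11962 FPKM in the 3 NC libraries, 12171, 12059 and 11071 in HOMING, 10418, 10673 and 11079 in BM, and 12000, 12362 and 12231 in TUMOR. The BM sums thus lay below all NC and TUMOR sums, and the highest BM library stood just above the lowest HOMING library. The mean sum was 12169 ± 304 FPKM in NC (SD, n = 3), 11767 ± 605 in HOMING, 10723 ± 333 in BM and 12197 ± 183 in TUMOR. The order of NC and TUMOR depended on the scaling. After rescaling by TMM factors, the mean sum of every complex was higher in NC than in TUMOR, and BM stayed lowest. Complex I then stood at 3601 FPKM in NC against 3265 in TUMOR, and complex V at 4624 against 4117. Subunit genes made up 2.15% to 2.47% of all FPKM in a library. No test is given for these sums.

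By complex, the BM mean was 0.838 of the NC mean for complex I, 0.804 for complex II, 0.899 for complex III, 0.932 for complex IV and 0.879 for complex V. Complex I summed to 3408 ± 122 FPKM in NC, 3194 ± 174 in HOMING, 2856 ± 102 in BM and 3368 ± 58.8 in TUMOR. Complex V, the largest sum, was 4376 ± 118 FPKM in NC, 4077 ± 180 in HOMING, 3847 ± 83.2 in BM and 4246 ± 40.2 in TUMOR. For complex IV the HOMING and TUMOR means (3298 ± 193 and 3320 ± 89.3 FPKM) stood above the NC mean (3150 ± 41.7 FPKM), with the lowest HOMING library below all 3 NC libraries; both directions turned when FPKM was rescaled by TMM factors, which gave 3223 in HOMING, 3218 in TUMOR and 3329 in NC. Complex II was the smallest sum, at 268 ± 15.8 FPKM in NC, 232 ± 2.29 in HOMING, 216 ± 5.65 in BM and 263 ± 10.7 in TUMOR.

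**Figure D1:**
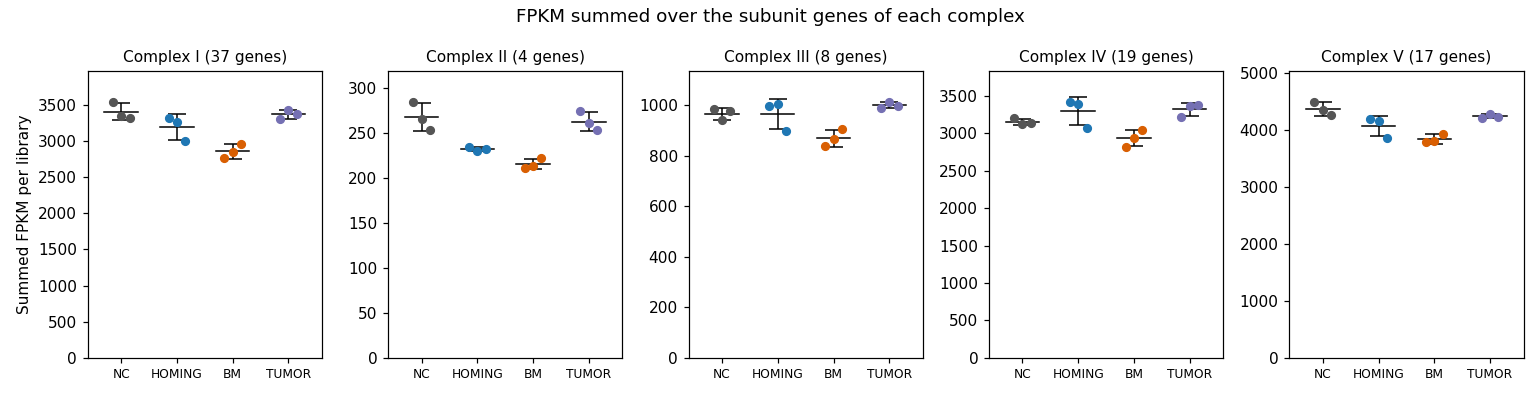
FPKM summed over the subunit genes of each complex, 1 point per library, in the 4 groups; bars give the mean and SD of 3 libraries. The BM mean is the lowest of the 4 in every panel; in the panel of complex I the 3 BM libraries lie between 2761 and 2965 FPKM.

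Of the 85 genes, 80 reached 1 FPKM in at least 3 libraries and entered the test, among 12314 genes in all. Cox4i2, Cox6b2, Cox7b2, Cox8b and the pseudogene Ndufs5-ps did not; Ndufs5-ps is listed above 0 in the HOMING libraries alone (2.08, 0.39 and 1.47 FPKM), and reads it shares with Ndufs5 may have been split between them. Cox7a1 passed only through the TUMOR libraries, where it is high, so its call adds 1 to the count of higher genes in each comparison with TUMOR below and supports nothing. Among the 80, the group with the lowest mean FPKM was BM for 44 genes (55.0%, against 21.0% of all genes tested) and NC for 19 (23.8%, against 40.8%). The highest mean was in NC for 35 genes (43.8%, against 23.9% of all genes), in TUMOR for 29 (36.2%, near the 33.7% of all genes) and in BM for 2 (2.50%, against 21.0%). Cox7a1 is counted among the 19 genes lowest in NC and the 29 highest in TUMOR. The typical subunit gene varied little between replicates, with a median coefficient of variation of 5.62% in NC, 5.66% in HOMING, 4.30% in BM and 4.17% in TUMOR.

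Each pair of groups was compared with edgeR's quasi-likelihood test, and a gene was called at a Benjamini-Hochberg adjusted p under 0.05 over all 12314 genes, with no minimum fold. In BM against NC, 54 of the 80 subunit genes were lower and 5 higher, where 32.2% of all genes tested were lower and 34.4% higher. The lower genes were thus 67.5% of the subunit genes and the higher ones 6.25%. The median log2 difference was −0.28 over the subunit genes and 0.02 over all genes. In HOMING against NC, 38 were lower and 13 higher, against 34.6% and 35.4% of all genes, and the median was −0.16. In TUMOR against NC, 37 were lower and 22 higher (21 without Cox7a1), against 36.5% and 37.2% of all genes. The median there was −0.09, but 0.03 when counts were scaled by library size alone. That scaling gave 24 lower and 30 higher, where 3482 of all 12314 genes were lower and 5525 higher. With limma on log2(FPKM + 1), 25 were lower and 30 higher, against 3487 and 5434 of all genes. The sign of the subunit median in TUMOR against NC therefore depended on the scaling (0.03 with limma). Under each of these 3 scalings it lay below the median of all genes. That median was 0.009 with TMM, 0.13 with library size alone and 0.097 with limma. Scaling by library size alone also gave 30 lower and 21 higher in HOMING against NC, where all genes gave 3284 and 5402. For BM against NC it gave 45 lower and 10 higher, where all genes gave 3110 and 5062. This scaling moved the median of all genes against NC up by 0.08 to 0.12. These 3 comparisons share the NC libraries.

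Between the recovered groups, few subunit genes were higher in BM. In BM against HOMING, 28 were lower and 4 higher, against 28.8% and 29.3% of all genes tested, and the median log2 difference was −0.13. The share of subunit genes called lower (35%) was near that of all genes, and the share called higher (5%) was below it. The count of lower genes was 18 without HOMING replicate 2 or without BM replicate 1, and that of higher genes was 2 without HOMING replicate 2 or 3 or BM replicate 1 or 3. In TUMOR against BM, 40 were higher (39 without Cox7a1) and 5 lower, against 35.4% and 34.2% of all genes, and the median was 0.15. The 5 lower genes became 3 without BM replicate 2 or 3 or TUMOR replicate 1 or 3. In TUMOR against HOMING, 18 were higher (17 without Cox7a1) and 6 lower, against 27.9% and 27.2% of all genes, and the median was 0.04. Both shares of the subunit genes (22.5% and 7.50%) lay below those of all genes. The 6 lower genes became 2 without HOMING replicate 1 or TUMOR replicate 1, and 1 without HOMING replicate 2. Counts of all genes with a library left out are not given here. These changes are therefore not read as particular to the subunit genes.

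Most of these differences were small. At least 2-fold differences were called for 10.4% of all genes in BM against HOMING, 14.3% in HOMING against NC, 11.5% in BM against NC, 16.4% in TUMOR against NC, 14.2% in TUMOR against BM and 10.8% in TUMOR against HOMING. Leaving out Cox7a1, such calls among the other 79 subunit genes numbered 0, 1, 2, 3, 2 and 1 in the same order, and they fell on Cox6a2, Uqcrq, Ndufa4l2 and Ndufv3.

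**Figure D2:**
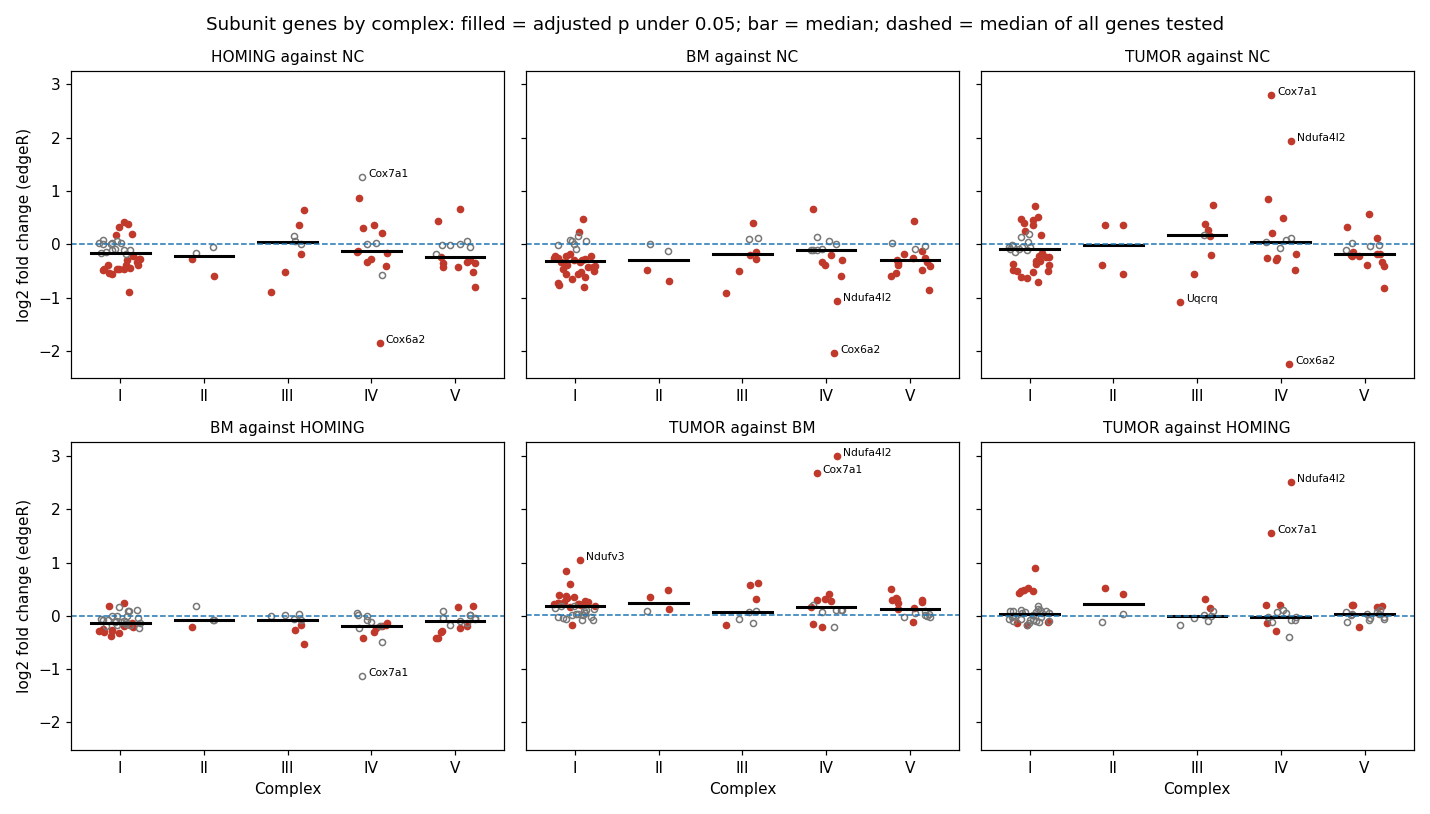
The log2 fold change (edgeR) of each tested subunit gene, by complex, in the 6 comparisons; filled points passed an adjusted p of 0.05, black bars mark the median of a complex and the dashed line the median of all genes tested. In BM against NC most points of complexes I and V lie below the dashed line, and the named genes are those at least 2-fold apart; Cox7a1 passed the filter only through TUMOR.

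Complex I genes were mostly lower in BM than in culture. In BM against NC, 27 of its 36 tested genes were lower and 2 higher (75% and 5.56%, against 32.2% and 34.4% of all genes). The median log2 difference was −0.31. In HOMING against NC 17 were lower and 5 higher (47.2% and 13.9%, against 34.6% and 35.4%). In TUMOR against NC 16 were lower and 8 higher (44.4% and 22.2%, against 36.5% and 37.2%). In TUMOR against BM 18 were higher and 1 lower (50% and 2.78%, against 35.4% and 34.2%). In TUMOR against HOMING 6 were higher and 3 lower (16.7% and 8.33%, against 27.9% and 27.2%). In BM against HOMING 2 were higher and 12 lower (5.56% and 33.3%, against 29.3% and 28.8%). Levels within the complex ran from a mean over all libraries of 264 FPKM for Ndufa12 and 203 FPKM for Ndufa7, both accessory subunits, to 12.4 FPKM for Ndufs4.

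Ndufa12 was measured at 344, 329 and 299 FPKM in NC, 260, 265 and 241 in HOMING, 221, 236 and 240 in BM, and 232, 247 and 258 in TUMOR. The 3 NC libraries stood above all 9 others. Its log2 difference was −0.56 ± 0.06 in BM against NC (SE; edgeR adjusted p = 3.67e-06), −0.45 in HOMING against NC and −0.52 in TUMOR against NC. Ndufa7 stood at 279, 252 and 220 FPKM in NC, 205, 195 and 185 in HOMING, 149, 155 and 166 in BM, and 205, 217 and 212 in TUMOR. It was lowest in BM, at a log2 difference of −0.76 ± 0.07 against NC (edgeR adjusted p = 1.45e-06) and −0.30 ± 0.07 against HOMING (0.00297). Ndufs5, another accessory subunit, was the most strongly lower gene of complex I in HOMING against NC. It measured 99.4, 97.0 and 85.1 FPKM in NC and 50.3 to 68.4 FPKM in every other library, with log2 differences of −0.89 ± 0.08 for HOMING, −0.79 ± 0.08 for BM and −0.70 ± 0.08 for TUMOR (edgeR adjusted p = 3.99e-07, 2.1e-06 and 2.91e-06).

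Ndufv3, an accessory subunit of the NADH-oxidising module, was the complex I gene most raised in TUMOR. It stood at 145, 143 and 145 FPKM in TUMOR, 96.9, 83.5 and 81.3 in NC, 80.3, 78.3 and 71.5 in HOMING, and 74.0, 75.6 and 74.0 in BM. The TUMOR libraries stood above all others. The log2 difference was 1.05 ± 0.09 against BM, 0.90 ± 0.09 against HOMING and 0.73 ± 0.09 against NC (edgeR adjusted p = 3.7e-07, 2.07e-06 and 5.88e-06). The gene has 2 listed transcripts, of 502 and 1594 bases, and both were higher in TUMOR. The short one averaged 111 FPKM in TUMOR and 59.0 to 71.5 in the other group means, and the long one 33.4 FPKM against 12.9 to 17.7. The long form made up 23.2% of the gene's FPKM in TUMOR, 23.1% in HOMING, 17.3% in BM and 17.8% in NC.

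Of the core subunits of the same module, Ndufv1 and Ndufv2 were lower in TUMOR than NC and Ndufs1 was higher. Ndufv1, which carries the flavin, stood at 65.7 to 71.3 FPKM in TUMOR and 86.1 to 93.0 in NC, and Ndufv2, an iron-sulphur subunit, at 61.8 to 65.5 FPKM in TUMOR and 82.5 to 83.8 in NC; both log2 differences were −0.50. Ndufs1, the largest iron-sulphur subunit, measured 31.8, 27.1 and 24.7 FPKM in TUMOR against 19.1, 19.4 and 21.2 in NC, a log2 difference of 0.37 ± 0.09 (edgeR adjusted p = 0.00189; 0.244 when the highest of its 4 transcripts stood for the gene). Its difference in BM against HOMING was 0.25 ± 0.09 (0.0259), but it lost the call without BM replicate 1 (adjusted p = 0.0909), BM replicate 3 (0.0666) or any of the 3 HOMING libraries (0.0536 to 0.0619), and turned to −0.12 with that transcript alone. Ndufs6 (77.7, 71.4 and 70.5 FPKM in TUMOR, at most 55.1 elsewhere) and Ndufb3 (43.04, 35.5 and 33.6 FPKM in TUMOR, at most 29.1 elsewhere) also stood apart in TUMOR; their log2 differences against BM were 0.60 and 0.85. These last 2 genes, Ndufv1 and Ndufv2 lie outside the naming rule and were chosen after their values were seen.

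A few complex I genes went the other way. Ndufb5, a membrane-arm subunit, was lower in NC (26.9, 29.4 and 38.4 FPKM) than in every other library (41.6 to 50.1 FPKM), and its log2 difference was 0.48 ± 0.11 in BM against NC (edgeR adjusted p = 0.00166). Ndufab1, the mitochondrial acyl carrier protein, was slightly lower in TUMOR (60.9, 69.8 and 63.6 FPKM) than in BM (71.6, 72.7 and 75.9 FPKM), with a log2 difference of −0.17 ± 0.06 (0.0273); the call was lost without TUMOR replicate 1 (0.104), TUMOR replicate 3 (0.0525), BM replicate 2 (0.0739) or BM replicate 3 (0.0665). Ndufa10 was higher in BM than HOMING by 0.18 ± 0.06 (0.0255), and this call was lost without any of HOMING replicates 2 and 3 or BM replicates 1 to 3 (adjusted p from 0.0512 to 0.1). 

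The 4 subunits of complex II, succinate dehydrogenase, split into 2 pairs. Sdhb, the iron-sulphur subunit, stood at 100.7, 101.5 and 89.7 FPKM in NC and 61.8 to 73.7 FPKM in all other libraries. Its log2 difference against NC was −0.60 ± 0.05 for HOMING, −0.68 ± 0.05 for BM and −0.56 ± 0.05 for TUMOR (edgeR adjusted p = 2.2e-07, 1.74e-07 and 3.57e-07). Sdhd, a membrane anchor, was lower than NC as well, at −0.27, −0.48 and −0.39 for HOMING, BM and TUMOR; the HOMING call was lost with counts scaled by library size alone (adjusted p = 0.0619). Sdha, the flavoprotein, stood at 56.8, 46.3 and 45.7 FPKM in TUMOR and 33.5 to 38.8 FPKM elsewhere, and Sdhc, the other anchor, at 77.8, 68.1 and 66.3 FPKM in TUMOR and 47.3 to 54.0 FPKM elsewhere. Both were higher in TUMOR, Sdha by a log2 difference of 0.36 ± 0.08 against NC and 0.53 ± 0.08 against HOMING and Sdhc by 0.37 ± 0.06 and 0.41 ± 0.06 (edgeR adjusted p at most 0.0011). Neither was called in HOMING against NC or BM against NC.

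Genes of complex III, which carries electrons from coenzyme Q to cytochrome c, were called in both directions. In BM against NC 5 of its 8 genes were lower and 1 higher (62.5% and 12.5%, against 32.2% and 34.4% of all genes). In HOMING against NC 3 were lower and 2 higher (37.5% and 25%, against 34.6% and 35.4%). In TUMOR against NC 3 were lower and 4 higher (37.5% and 50%, against 36.5% and 37.2%). The lower shares in the last 2 comparisons were thus near those of all genes. In TUMOR against BM 3 were higher and 1 lower (37.5% and 12.5%, against 35.4% and 34.2%). In TUMOR against HOMING 2 were higher and 0 lower (25% and 0%, against 27.9% and 27.2%). In BM against HOMING 3 were lower and 0 higher (37.5% and 0%, against 28.8% and 29.3%). Uqcrq, a small subunit near the ubiquinone site, measured 225, 204 and 184 FPKM in NC, 123, 121 and 111 in HOMING, 108, 114 and 124 in BM, and 101.1, 112 and 105 in TUMOR. The NC libraries stood far above the 9 others, which overlapped. The log2 difference from NC was −0.90 ± 0.07 for HOMING, −0.90 ± 0.07 for BM and −1.07 ± 0.07 for TUMOR (edgeR adjusted p = 1.58e-07, 3.45e-07 and 3.24e-08). Its 2 transcripts kept their proportions, with the major one at 90.2% to 91.0% of the gene in every group mean. The small difference of Uqcrq in TUMOR against BM (−0.17 ± 0.07, 0.0479) was lost without BM replicate 2 or 3 or TUMOR replicate 1 or 3 (0.0855, 0.191, 0.129 and 0.111).

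Uqcrh, the hinge protein that helps complex III dock cytochrome c, showed a different order. It stood at 68.3, 57.6 and 67.4 FPKM in NC, 70.7, 72.8 and 78.5 in BM, 110, 118 and 99.3 in HOMING, and 118, 116 and 119 in TUMOR. NC and BM did not differ beyond their spread by the test (log2 0.12 ± 0.08, edgeR adjusted p = 0.185), nor did HOMING and TUMOR (0.09 ± 0.08, 0.319), whereas BM was below HOMING by 0.53 on the log2 scale (−0.53 ± 0.08, 6.71e-05) and TUMOR above BM by 0.62 ± 0.08 (1.14e-05). The most abundant complex III gene over all libraries was Uqcr11 (mean 205 FPKM), which passed the test in no comparison (165 to 228 FPKM). Uqcr10 (153 to 190 FPKM) was slightly lower than NC in each recovered group, at −0.19, −0.27 and −0.19 for HOMING, BM and TUMOR; the HOMING call was lost without NC replicate 3 (0.0804) or HOMING replicate 3 (0.119), and the TUMOR call without NC replicate 3 (0.0728), TUMOR replicate 1 (0.0659) or TUMOR replicate 3 (0.0519), and both with counts scaled by library size alone (0.349 and 0.403).

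Complex IV, cytochrome c oxidase, held 2 of the 4 genes with differences of at least 2-fold, Cox7a1 left out, beside a median log2 difference of −0.10 in BM against NC. In BM against NC 7 of 15 tested genes were lower and 1 higher (46.7% and 6.67%, against 32.2% and 34.4% of all genes). In HOMING against NC 7 were lower and 4 higher (46.7% and 26.7%, against 34.6% and 35.4%). In TUMOR against NC 6 were lower and 5 higher, and these 40% and 33.3% were near the 36.5% and 37.2% of all genes. In TUMOR against BM 7 were higher and 2 lower (46.7% and 13.3%, against 35.4% and 34.2%). In BM against HOMING 6 were lower and 0 higher (40% and 0%, against 28.8% and 29.3%). In TUMOR against HOMING 4 were higher and 2 lower (26.7% and 13.3%, against 27.9% and 27.2%). Cox7a1 was among the higher genes of each comparison with TUMOR. The main forms were abundant in every group: Cox4i1, the large regulatory subunit, averaged 463 FPKM over all libraries and Cox8a 465 FPKM. Cox4i1 stood at 596, 551 and 538 FPKM in NC, 484, 457 and 428 in HOMING, 382, 395 and 409 in BM, and 423, 458 and 436 in TUMOR, a log2 difference of −0.59 ± 0.05 in BM against NC (edgeR adjusted p = 1.11e-06). Cox8a hardly moved (418 to 486 FPKM), with its lowest mean in TUMOR (437 ± 18.7 FPKM, log2 −0.25 ± 0.04 against NC). It was also called lower in HOMING than NC, TUMOR than BM and TUMOR than HOMING. These calls were lost with counts scaled by library size alone (edgeR adjusted p = 0.803, 0.0572 and 0.0542). Cox5a, the subunit to which thyroid hormone metabolites are known to bind, was lower in TUMOR than in BM and HOMING, at 143, 150 and 154 FPKM against 165 to 170 in BM, 173 to 192 in HOMING and 162 to 176 in NC; its log2 difference was −0.21 ± 0.05 against BM and −0.29 ± 0.05 against HOMING (edgeR adjusted p = 0.00399 and 0.000507).

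Cox7c went against the family trend. This small subunit measured 111, 122 and 149 FPKM in NC, 262, 260 and 236 in HOMING, 200, 207 and 230 in BM, and 249, 244 and 262 in TUMOR. NC lay below all others, at log2 differences of 0.88 ± 0.10 for HOMING, 0.66 ± 0.10 for BM and 0.85 ± 0.10 for TUMOR (edgeR adjusted p = 4.06e-06, 7.36e-05 and 4.53e-06). The 3 recovered groups were not told apart by the test, with adjusted p from 0.0628 to 0.84.

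The alternative forms of complex IV subunits were rare next to the common ones. Cox4i2, the lung form induced by low oxygen, was at or under 0.27 FPKM in every library. Cox6b2 and Cox7b2, testis forms, were at or under 0.56 and 0.09 FPKM, and Cox8b, the heart form, at 0 in all libraries except 1 TUMOR library with 0.08 FPKM. The common forms Cox6a1, Cox6b1 and Cox7a2 and the supercomplex factor Cox7a2l lay between 51.1 and 428 FPKM. Cox6b1 and Cox7a2 were lower in BM than HOMING, at −0.41 ± 0.07 and −0.30 ± 0.07 on the log2 scale (edgeR adjusted p = 0.000163 and 0.00228), and higher in TUMOR than BM, at 0.30 ± 0.07 and 0.42 ± 0.07 (0.0012 and 0.00014). Cox7a2l was lower than NC in each recovered group, at −0.32, −0.33 and −0.26. Cox6a1 was highest in TUMOR (382, 369 and 387 FPKM; at most 341 elsewhere), at a log2 difference of 0.20 ± 0.05 against HOMING (0.00381).

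Cox6a2, the form of heart and skeletal muscle, was the exception in culture. It stood at 7.90, 8.75 and 9.67 FPKM in NC, 2.38, 2.74 and 3.54 in HOMING, 2.02, 2.44 and 1.96 in BM, and 1.58, 1.80 and 2.64 in TUMOR. All NC libraries were above all others. The log2 difference from NC was −1.85 ± 0.19 for HOMING, −2.04 ± 0.19 for BM and −2.25 ± 0.20 for TUMOR (edgeR adjusted p = 2.23e-06, 1.84e-06 and 4.04e-07). Even in NC it made up 2.55% ± 0.23 of the FPKM of Cox6a1 and Cox6a2 together, against 0.885%, 0.644% and 0.525% in HOMING, BM and TUMOR. Of 8 skeletal and heart muscle markers, 5 are listed, and their summed level was 2.63 to 7.29 FPKM in NC and 2.89 to 6.76 FPKM in the other libraries, nearly all of it Tnnt2.

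Ndufa4l2 gave the largest difference of the family. It is the paralogue of Ndufa4 and is known as a target of hypoxia-inducible factor. It measured 29.6, 31.5 and 33.4 FPKM in TUMOR, 5.57, 6.27 and 4.66 in HOMING, 3.75, 4.39 and 3.35 in BM, and 14.1, 3.99 and 4.72 in NC. The TUMOR libraries stood above the rest, and NC replicate 1 stood apart from the other NC libraries. The log2 difference of TUMOR was 3.00 ± 0.36 against BM, 2.50 ± 0.35 against HOMING and 1.93 ± 0.34 against NC (edgeR adjusted p = 1.1e-05, 6.19e-05 and 0.0002). The call in BM against NC (−1.06 ± 0.37, 0.0221) rested on NC replicate 1: without it the difference was −0.28 with an adjusted p of 0.131, and the call was also lost without BM replicate 1 (0.0577) or BM replicate 3 (0.0723). Ndufa4 itself remained far more abundant, at 277 to 375 FPKM, so that Ndufa4l2 made up 8.39% ± 0.18 of the pair in TUMOR, 1.499% ± 0.14 in HOMING, 1.24% ± 0.23 in BM and 2.53% ± 1.83 in NC. Ndufa4 was not called in any comparison with TUMOR. Krt8 and Krt19 were also high in TUMOR, as given above, and their part in this difference was not tested.

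Cox7a1, the muscle form of Cox7a, was near the limit of detection. It stood at 1.03, 1.59 and 1.22 FPKM in TUMOR, 0.50, 0.71 and 0.07 in HOMING, 0.28, 0.07 and 0.21 in BM, and 0.07, 0.28 and 0.14 in NC, from 53, 18, 8 and 7 counts over the 3 libraries of each group. Since it entered the test only through the TUMOR libraries, no fold or test is given for it.

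**Figure D3:**
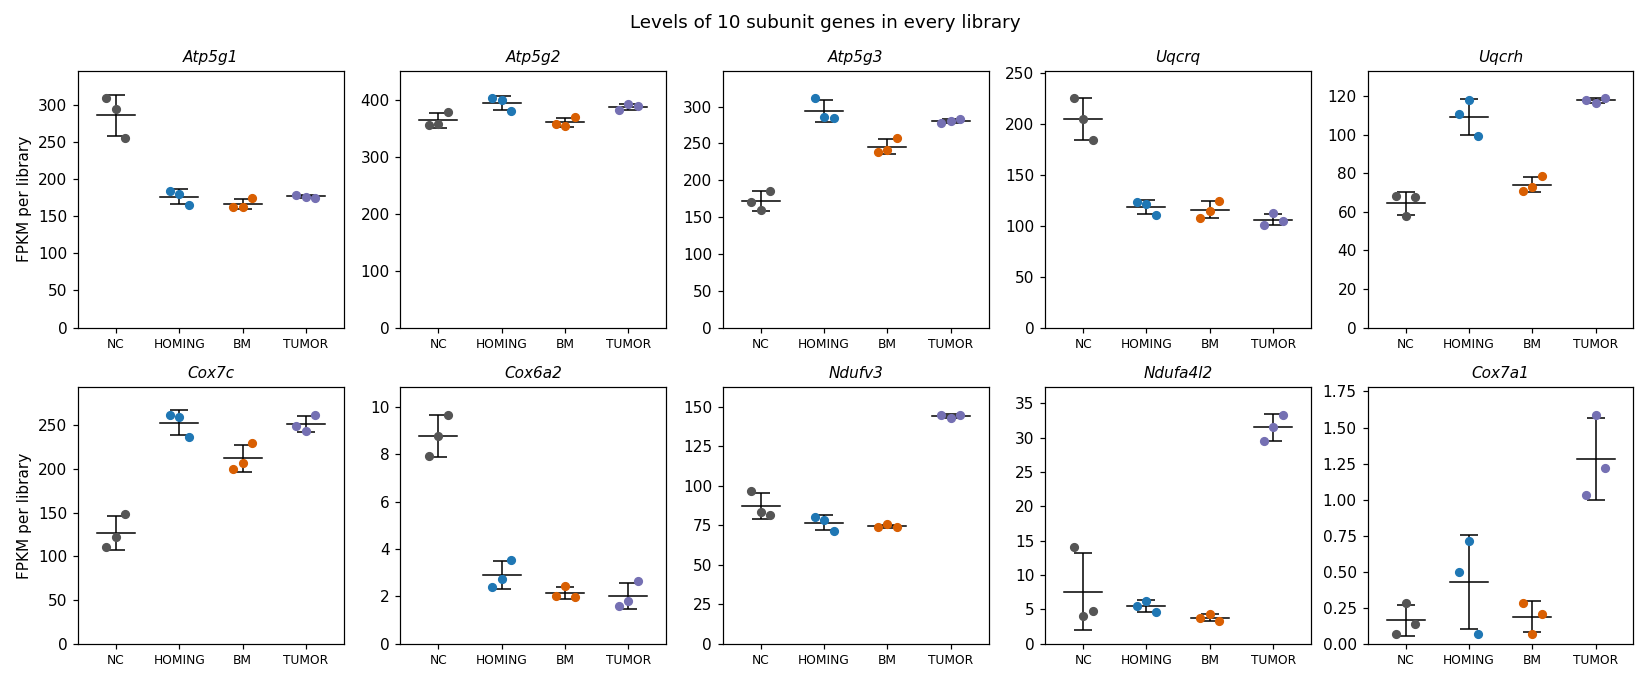
FPKM of 10 subunit genes in each library of the 4 groups; bars give the mean and SD of 3 libraries, and each axis starts at 0. Atp5g1, Uqcrq and Cox6a2 are highest in the NC libraries, Atp5g3 and Cox7c lowest there, and Ndufv3 and Ndufa4l2 highest in the TUMOR libraries; NC replicate 1 of Ndufa4l2 stands at 14.1 FPKM.

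Complex V followed complex I. In BM against NC 13 of its 17 genes were lower and 1 higher (76.5% and 5.88%, against 32.2% and 34.4% of all genes). In HOMING against NC 9 were lower and 2 higher (52.9% and 11.8%, against 34.6% and 35.4%). In TUMOR against NC 10 were lower and 3 higher (58.8% and 17.65%, against 36.5% and 37.2%). In TUMOR against BM 9 were higher and 1 lower (52.9% and 5.88%, against 35.4% and 34.2%). In TUMOR against HOMING 4 were higher and 1 lower (23.5% and 5.88%, against 27.9% and 27.2%). In BM against HOMING 2 were higher and 6 lower (11.8% and 35.3%, against 29.3% and 28.8%). Atp5b, the catalytic beta subunit, was the most abundant member of the family, with a mean over all libraries of 850 FPKM. It averaged 985 ± 27.1 FPKM in NC, 742 ± 20.7 in HOMING, 825 ± 2.05 in BM and 849 ± 19.98 in TUMOR. It was thus lowest in HOMING, at a log2 difference of −0.52 ± 0.04 against NC (edgeR adjusted p = 9.3e-08), and higher in BM than HOMING by 0.18 ± 0.04 (0.00128). Atp5a1, the alpha subunit, which lies outside the naming rule and was chosen after its values were seen, was also lowest in HOMING, at −0.42 in HOMING against NC and 0.16 in BM against HOMING, and it was lower in TUMOR than BM (−0.12 ± 0.04, edgeR adjusted p = 0.0136).

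Atp5md and Atp5k, small subunits of the membrane part, were lower in BM than HOMING. Atp5md stood at 321, 334 and 294 FPKM in HOMING and 226, 231 and 239 in BM, and Atp5k at 141, 142 and 119 FPKM in HOMING and 96.9, 92.5 and 104 in BM. HOMING lay above BM in every library of both genes. The log2 difference of BM against HOMING was −0.42 ± 0.07 for Atp5md and −0.42 ± 0.08 for Atp5k (edgeR adjusted p = 0.000187 and 0.00061). Atp5l was lower in TUMOR than HOMING by a log2 difference of −0.20 ± 0.07 (0.0282), a call lost without HOMING replicate 1 (0.0924), HOMING replicate 2 (0.114), TUMOR replicate 1 (0.103) or TUMOR replicate 3 (0.0607).

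The c ring of ATP synthase is built from 1 mature protein that 3 genes encode, Atp5g1, Atp5g2 and Atp5g3, which differ in the targeting peptide that is removed. These genes exchanged places between culture and the recovered groups. Atp5g1 measured 309, 294 and 255 FPKM in NC, 184, 181 and 165 in HOMING, 162, 162 and 174 in BM, and 179, 176 and 175 in TUMOR. Atp5g3 measured 171, 159 and 186 FPKM in NC, 311, 286 and 284 in HOMING, 239, 241 and 257 in BM, and 278, 280 and 283 in TUMOR. NC stood above all others for Atp5g1 and below all others for Atp5g3. Atp5g2 lay between 354 and 402 FPKM throughout.

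The log2 difference of Atp5g1 against NC was −0.81 ± 0.06 for HOMING, −0.86 ± 0.06 for BM and −0.82 ± 0.06 for TUMOR (edgeR adjusted p = 1.38e-07, 1.88e-07 and 1.08e-07). That of Atp5g3 was 0.66 ± 0.06, 0.43 ± 0.06 and 0.58 ± 0.06 (8.31e-07, 5.28e-05 and 2.48e-06). Atp5g2 was called in none of the 6 comparisons. Of the FPKM of the 3 genes together, Atp5g1 made up 34.8% ± 3.21 in NC and 20.4% to 21.5% in the other group means, Atp5g3 20.9% ± 1.60 and 31.8% to 34.0%, and Atp5g2 44.3% ± 1.84 and 45.6% to 46.7%. Their summed level was 822 ± 11.8 FPKM in NC, 864 ± 33.8 in HOMING, 772 ± 24.9 in BM and 844 ± 5.46 in TUMOR.

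The transcripts of Atp5g1 also shifted. Of its 2 main RefSeq transcripts, one (805 bases) made up 68.5% ± 1.99 of the gene's FPKM in NC, 56.0% ± 1.90 in HOMING, 62.2% ± 0.23 in BM and 58.5% ± 0.85 in TUMOR, and the other (798 bases) 29.9%, 42.2%, 35.8% and 40.0%. The main transcript of Atp5g3 stayed at 74.8% to 75.9% of its gene in every group mean.

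The promoters of the 3 c-ring genes are shown because Atp5g1 and Atp5g3 differed from culture in opposite directions while Atp5g2 did not pass the test. Each is the stretch from 250 bases before to 50 after a RefSeq start, on the GRCm38.p6 assembly and the minus strand: Atp5g1 at chr11:96075582-96075881, Atp5g2 at chr15:102670998-102671297 and Atp5g3 at chr2:73911277-73911576. Capitals mark matches, on either strand, to the NRF-1 motif, which is GCGCA and GCGC with 1 free base between them (nuclear respiratory factor 1, a regulator of respiratory genes) or to ACGTG, a core shared by hypoxia-inducible factor sites and E boxes; CACGTG and GCGCATGCGC match on both strands at overlapping positions.
Atp5g1 promoter: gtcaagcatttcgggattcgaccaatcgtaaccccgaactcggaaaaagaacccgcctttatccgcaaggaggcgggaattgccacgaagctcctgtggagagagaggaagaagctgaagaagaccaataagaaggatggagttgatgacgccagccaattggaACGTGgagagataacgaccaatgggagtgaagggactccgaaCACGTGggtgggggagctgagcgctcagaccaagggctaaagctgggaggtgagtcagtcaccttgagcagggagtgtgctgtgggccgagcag
Atp5g2 promoter: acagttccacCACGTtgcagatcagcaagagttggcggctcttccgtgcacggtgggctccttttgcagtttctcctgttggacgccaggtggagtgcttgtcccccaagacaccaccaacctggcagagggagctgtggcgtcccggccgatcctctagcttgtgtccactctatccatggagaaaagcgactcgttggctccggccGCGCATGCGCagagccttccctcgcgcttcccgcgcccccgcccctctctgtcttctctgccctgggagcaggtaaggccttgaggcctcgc
Atp5g3 promoter: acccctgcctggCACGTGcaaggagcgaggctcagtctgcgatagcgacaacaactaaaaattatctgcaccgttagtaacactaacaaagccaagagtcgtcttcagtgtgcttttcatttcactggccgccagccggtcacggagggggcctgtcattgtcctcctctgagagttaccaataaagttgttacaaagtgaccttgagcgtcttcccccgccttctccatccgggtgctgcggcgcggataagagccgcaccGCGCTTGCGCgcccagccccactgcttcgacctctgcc
The NRF-1 motif was matched in the windows of Atp5g2, starting at base −42 from the start site, and Atp5g3, at base 13, and not in that of Atp5g1. ACGTG was matched in all 3, including 1 CACGTG each in Atp5g1 and Atp5g3. None of the 3 held CCGGAAG, the ETS-family motif.

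Promoter windows were found for 69 of the 85 genes, and 17 of those 69 held the NRF-1 motif (24.6%, against 5.19% of 27025 genes in the RefSeq table). CCGGAAG was held by 17 (24.6%, against 9.93%) and ACGTG by 17 (24.6%, against 21.8%). These shares are over all genes of the RefSeq table, expressed here or not, and not over the 12314 genes tested. ACGTG was added after the other 2 motifs had been chosen. A match describes letters in the window and not a bound site. The window of Ndufv3 held 1 ACGTG match, that of Sdha 3 NRF-1 matches and 1 ACGTG match, that of Uqcrh 1 CCGGAAG match, and that of Cox7c none of the 3 motifs.

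The BM against HOMING differences ran with transcript length. Over the 80 genes, log2 transcript length and the log2 fold change had a Pearson correlation of 0.53 and a Spearman correlation of 0.55, given as a description, since the genes share the same 6 libraries. The 80 genes include Cox7a1, with a main transcript of 393 bases and 8 counts in BM and 18 in HOMING. Correlations without it are not given here. Over all 12314 genes the Pearson correlation was 0.07. The median log2 difference was −0.19 for the 32 subunit genes whose main transcript has at most 600 bases and −0.08 for the 48 longer ones. In BM against NC the Pearson correlation over the 80 genes was −0.03 and in HOMING against NC −0.27, in TUMOR against NC −0.14, in TUMOR against BM −0.16 and in TUMOR against HOMING 0.08. The part of transcript length in the BM against HOMING differences was not tested.

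**Figure D4:**
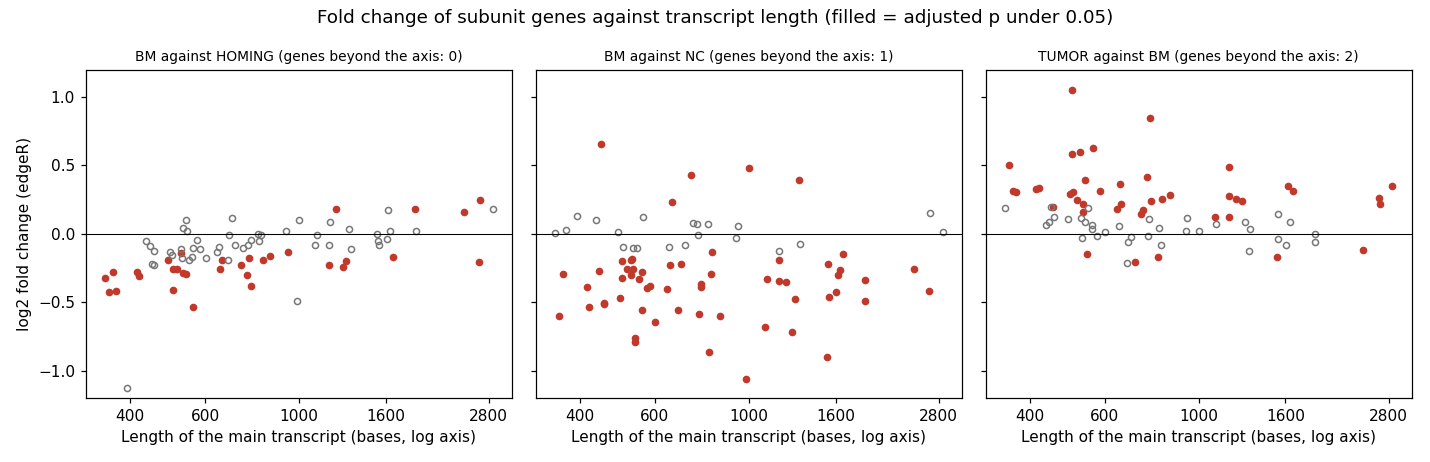
The log2 fold change (edgeR) of each tested subunit gene against the length of its main transcript (log axis) in 3 comparisons; filled points passed an adjusted p of 0.05. In BM against HOMING the genes with transcripts of at most 600 bases have a median of −0.19 and the longer ones −0.08; no such slope is visible for BM against NC.

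Other mitochondrial gene groups were counted in the same way. Of 43 assembly factors, which build the complexes without being part of them, 13 were lower and 10 higher in BM against NC; the lower share of 30.2% was near the 32.2% of all genes, and the higher share was 23.3% against 34.4%. In TUMOR against NC 16 were lower and 12 higher (37.2% and 27.9%, against 36.5% and 37.2% of all genes), and in HOMING against NC 16 and 9 (37.2% and 20.9%, against 34.6% and 35.4%). In BM against HOMING 13 were higher and 7 lower (30.2% and 16.3%, against 29.3% and 28.8%), in TUMOR against BM 13 and 14 (30.2% and 32.6%, against 35.4% and 34.2%), and in TUMOR against HOMING 8 and 13 (18.6% and 30.2%, against 27.9% and 27.2%). Sco1, a copper chaperone of complex IV, measured 8.67, 8.73 and 7.68 FPKM in NC, 4.33, 4.74 and 4.14 in HOMING, 5.82, 5.33 and 6.75 in BM, and 3.31, 3.42 and 3.62 in TUMOR. NC was highest and TUMOR lowest, and the log2 difference between them was −1.40 ± 0.08 (edgeR adjusted p = 1.51e-08). Cox18, which inserts a complex IV core subunit, and Cox10, of haem A synthesis, were lower in TUMOR than NC by log2 differences of −0.89 ± 0.05 and −0.69 ± 0.05 (1.36e-08 and 1.04e-07).

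Of 17 tested regulators of mitochondrial biogenesis, 10 were higher and 0 lower in BM against HOMING (58.8% higher, against 29.3% of all genes), 7 higher and 3 lower in BM against NC (41.2% and 17.6%, against 34.4% and 32.2%), and 4 higher and 11 lower in TUMOR against BM (23.5% and 64.7%, against 35.4% and 34.2%). The higher and lower shares were 29.4% and 41.2% in HOMING against NC, 35.3% and 47.1% in TUMOR against NC, and 17.6% and 29.4% in TUMOR against HOMING, where all genes gave 35.4% and 34.6%, 37.2% and 36.5%, and 27.9% and 27.2%. Tfam, which packages and transcribes mitochondrial DNA, stood at 14.7, 14.2 and 16.1 FPKM in NC, 9.85, 10.04 and 9.68 in HOMING, 18.2, 17.4 and 17.6 in BM, and 10.7, 10.1 and 9.42 in TUMOR. BM lay above all other libraries, at a log2 difference of 0.88 ± 0.06 against HOMING, while TUMOR against BM was −0.86 ± 0.06 (edgeR adjusted p = 1.83e-07 and 1.64e-07). Pprc1, a PGC-1-related coactivator, was highest in BM too (38.5, 39.8 and 37.4 FPKM; 25.6 to 36.0 elsewhere), at −0.62 ± 0.05 in TUMOR against BM (3.1e-07). Gabpb1, a subunit of the ETS-family factor GABP, was lower in TUMOR than NC by a log2 difference of −0.58 ± 0.04 (9.83e-08).

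The electron carrier list counts Cyc1, which the symbol rule does not take into complex III. Of 17 electron carrier and coenzyme Q genes, 11 were lower and 3 higher in TUMOR against NC (64.7% and 17.6%, against 36.5% and 37.2% of all genes). In HOMING against NC 8 were lower and 2 higher (47.1% and 11.8%, against 34.6% and 35.4%), and in BM against NC 6 and 3, where the lower share of 35.3% was near the 32.2% of all genes; 7 were higher and 1 lower in BM against HOMING, 1 higher and 9 lower in TUMOR against BM, and 5 and 6 in TUMOR against HOMING (all genes: 29.3% and 28.8%, 35.4% and 34.2%, and 27.9% and 27.2%, in the same order). Etfb, a subunit of the electron transfer flavoprotein, stood at 108, 104 and 104 FPKM in NC and 51.8 to 64.6 FPKM in all other libraries, at a log2 difference of −0.94 ± 0.06 in TUMOR against NC (edgeR adjusted p = 2.72e-08). Coq5 and Coq9, both of coenzyme Q synthesis, were lower by −0.87 ± 0.05 in TUMOR against NC (1.22e-08) and −0.81 ± 0.05 in HOMING against NC (4.53e-08).

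Of 13 tricarboxylic acid cycle genes, 8 were lower and 2 higher in TUMOR against NC (61.5% and 15.4%, against 36.5% and 37.2% of all genes), 8 and 3 in HOMING against NC (61.5% and 23.1%, against 34.6% and 35.4%), and 6 and 3 in BM against NC (46.2% and 23.1%, against 32.2% and 34.4%). In TUMOR against BM and TUMOR against HOMING, 5 and 4 were lower, shares of 38.5% and 30.8% that were near the 34.2% and 27.2% of all genes, and 2 were higher in each. In BM against HOMING 6 were higher and 0 lower (46.2% higher, against 29.3% of all genes). Suclg1, a subunit of succinyl-CoA ligase, was higher in TUMOR than NC, at 84.5, 79.3 and 75.1 FPKM against 37.0, 36.7 and 45.3 (log2 0.88 ± 0.08, edgeR adjusted p = 6.49e-07). Dlst and Dld, of the 2-oxoglutarate dehydrogenase complex, were lower by −0.52 ± 0.04 in TUMOR against NC (2.15e-07) and −0.86 ± 0.08 in HOMING against NC (5.77e-07).

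Of 78 mitochondrial ribosomal protein genes, 25 were higher and 24 lower in BM against NC, 27 and 22 in HOMING against NC, 27 and 28 in TUMOR against NC, 16 and 20 in BM against HOMING, 20 and 28 in TUMOR against BM, and 16 and 20 in TUMOR against HOMING. These shares, from 20.5% to 34.6% higher and 25.6% to 35.9% lower, compare with 27.9% to 37.2% and 27.2% to 36.5% of all genes. Their median log2 difference lay within 0.04 of 0 in each comparison.

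Of 7 carrier and uncoupling genes, 4 were tested, namely Slc25a3, Slc25a4, Slc25a5 and Ucp2. All 4 were higher in HOMING than NC, 2 in BM than NC, and 3 in TUMOR than NC with 1 lower; 2 were lower in BM than HOMING, 1 was higher and 1 lower in TUMOR than BM, and 1 was lower in TUMOR than HOMING. With 4 genes these counts are not read against the shares of all genes. Slc25a5, an ADP/ATP carrier that exports the ATP made by complex V, stood at 216, 224 and 286 FPKM in NC and 334 to 403 FPKM in all other libraries, at a log2 difference of 0.64 ± 0.10 in BM against NC (edgeR adjusted p = 7.88e-05). Slc25a3, the phosphate carrier, was higher in TUMOR than NC by 0.37 ± 0.06 (9.11e-05). Ucp2 stood at 59.3, 56.0 and 67.2 FPKM in HOMING and 29.0, 38.0 and 35.9 in TUMOR, a log2 difference of −0.84 ± 0.10 (1.14e-05). Neutrophil and red cell genes were also high in HOMING, as given above, and their part in this difference was not tested.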

How the data were processed

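RNA was sequenced from 12 libraries of sorted or cultured cells, prepared with a TruSeq RNA kit per the labels' protocols. Bowtie 0.12.2 and genome build mm8 are named in the submitters' processing notes; the program that gave counts and its use of strand are not given in the sources used here, so reads shared with overlapping genes or processed pseudogenes are uncertain. The deposited tables give, per transcript, the authors' expected counts (estimated, not whole) and FPKM values. Transcripts absent from a table were set to 0. Both were summed per Entrez gene, and symbols came from the RefSeq table of GRCm38.p6 (19629 of 19679 Entrez numbers matched); 1322 genes without an Entrez number held 2.08% to 2.65% of counts and stayed in the fit.

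Genes with at least 1 FPKM in 3 libraries were tested with edgeR 4.0.16 (quasi-likelihood F-test, two-sided, TMM scaling, expected counts rounded, all 12 libraries in 1 fit, Benjamini-Hochberg adjustment), in R 4.3.3. SE is the log2 fold change divided by the square root of F. The fits were tested on simulated data. limma 3.58.1 (on log2 of FPKM plus 1 or 0.1), DESeq2 1.42.0, other scalings, no filter, the highest transcript of a gene, the compared groups alone, a replicate block, fold minimums and each library left out were the alternatives. Replicates of a group differed by more than sampling noise, with a chi-square per gene of at least 3.19.

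The members, gene lists and tests were chosen with earlier results of these data known. Named genes are members with a 2-fold call, the 2 most abundant per complex, the 3 largest called differences each way per comparison, the isoform sets, the Sdh genes, and up to 3 called genes per pathway list by smallest adjusted p; exceptions are marked. Protein sequences were not used here.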

Additional observations from a re-analysis of the deposited data

How the results depend on the processing

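Over the 6 comparisons, 155 of 204 recomputed counts of called subunit genes stayed within 1.5 times the value reported, and of the recomputed log2 fold changes of named genes 1620 kept direction and call, 134 kept direction and lost the call, and 1 reversed (Ndufs1 in BM against HOMING, −0.122 with the highest transcript). The cause of these shifts was not tested. Minimum folds removed most calls by construction. At 1.5-fold the lower and higher counts were 5 and 3 in HOMING against NC, 12 and 1 in BM against NC, and 6 and 5 in TUMOR against NC, the higher counts were 6 in TUMOR against BM and 3 in TUMOR against HOMING, and all others were 0. At 2-fold they were 1 and 0, 2 and 0, and 2 and 2, then 3 and 2, and again 0. At both minimums Cox7a1 is among the higher genes of each comparison with TUMOR. Without it the 2-fold calls in either direction were 3 against NC, 2 against BM and 1 against HOMING. The share of all genes at 1.5-fold is not given here, so the 1.5-fold counts are not read against it. Genes higher than NC numbered 21 in HOMING and 10 in BM with library size alone, where all genes gave 5402 and 5062. With limma at either pseudocount they numbered 20 and 10, where all genes gave 5310 or 5393 and 4898 or 5088. Genes lower in TUMOR than NC numbered 24 with library size alone, where all genes gave 3482. Genes lower in TUMOR than BM numbered 1 with library size alone, 2 with limma at either pseudocount and 8 without a filter. All genes gave 3810, 3711 or 3827, and 5172 in the same order, the last from a fit of more genes. Genes higher in BM than HOMING numbered 8 with the compared groups alone, where all genes gave 4207.

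Leaving out 1 library at a time gave 2 to 3 genes higher and 18 to 39 lower in BM than HOMING, 11 to 15 higher and 33 to 38 lower in HOMING than NC, 5 to 7 higher and 46 to 51 lower in BM than NC, 20 to 25 higher and 33 to 36 lower in TUMOR than NC, 33 to 40 higher and 3 to 5 lower in TUMOR than BM, and 16 to 19 higher and 1 to 8 lower in TUMOR than HOMING. Counts of all genes in these smaller fits are not given here, so the ranges are not read as particular to the subunit genes. Cox7a1 is counted in the ranges of higher genes with TUMOR wherever it was called. Replicate numbers are shared between groups without a stated pairing, and same-number deviations correlated between −0.12 and 0.224. With a replicate block, 28 genes were lower in BM than HOMING, 52 lower in BM than NC and 37 higher in TUMOR than BM. All 12314 genes gave 3457, 3851 and 4284 in the same order.

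Rescaled by TMM factors, summed FPKM in NC was 3601 for complex I, 1022 for III, 3329 for IV and 4624 for V; in TUMOR it was 3265, 970, 3218 and 4117, so that complex IV was higher in NC than in TUMOR or HOMING (3223), and complex II in HOMING was 227. Complex III also turned, from 967 in NC and 1000 in TUMOR before rescaling. With the highest transcript per gene, complex I was 2748 in BM and 3232 in TUMOR, and complex V was 4191 in NC, 3887 in HOMING, 3684 in BM and 4056 in TUMOR. Depth limits Cox4i2, Cox6b2, Cox7b2, Cox8b and Cox7a1, each at no more than 53 counts over the 3 libraries of a group.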
